A study of Drosophila melanogaster with 6 samples.

Results

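Chitin is a polymer of N-acetylglucosamine that stiffens the insect cuticle and the lining of the tracheae, and that also forms the peritrophic matrix, the sleeve that separates food from the midgut cells. Epidermal and tracheal cells make it with the synthase *kkv*, midgut cells with the synthase *Chs2*, and both draw on UDP-N-acetylglucosamine, whose last step of synthesis is run by *mmy*. Deacetylases then modify the polymer, secreted proteins bind and order it, and chitinases cut it, which is how the old cuticle is loosened at each moult. The transcripts of 51 genes of this machinery, of 13858 genes in the table, were examined in whole female *Drosophila* larvae: 5 genes of synthesis and chain organisation, 5 deacetylases, 10 chitinases, 6 chitinase-like Idgf proteins, 12 secreted chitin-binding proteins of the obstructor and peritrophin kind, and 13 mucins. They were chosen by name, and 50 were found under that name, while *Chs2* was found under its older symbol, CS-2, through its gene ID 40442.

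*Dctn1*, the fly orthologue of human *DCTN1*, encodes the large subunit of dynactin, the complex that links the dynein motor to its cargo. In the knockdown larvae Act5C-GAL4, a driver active throughout the body, expressed 1 inverted-repeat construct, UAS-Dctn1-RNAi, while the control larvae carried the driver alone. All larvae were at the late L3b stage, the last before pupariation, and each library came from several pooled larvae. There were 3 knockdown libraries, numbered 1, 2 and 3, and 3 control libraries, numbered 2, 3 and 4. Values are FPKM, in which the fragments counted for a gene are divided by its transcript length and by the library's total, so levels of different genes can be compared per length, but the depth behind each value is unknown. The p-values measure the spread between these libraries. Since whole larvae were sequenced, fewer cells of a type and less RNA per cell cannot be told apart in any of the values.

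*Dctn1* itself had 7.33, 7.96 and 6.85 FPKM in the knockdown libraries, against 15.3, 15.2 and 12.5 FPKM in the control libraries. The knockdown mean was 51.5% of the control mean, a log2 fold change of -0.94 (SE 0.13, limma adjusted p = 0.00737), and the groups did not overlap. With 3 libraries against 3, the exact two-sided permutation p was 0.1, the smallest this design allows. Fold changes here and below are knockdown over control of log2(FPKM + 0.1), a measure that shrinks the change of very low genes, and adjusted p-values are Benjamini-Hochberg values over the 9978 genes with a mean of at least 0.5 FPKM. The median fold change of all these genes was 0.16 on the log2 scale, and -0.01 after median-of-ratios scaling, so values near 0.16 lie at the centre of the table as deposited.

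Of the 51 chitin genes, 43 passed this floor, and 8 did not: *Cht8*, *Cht12* and 6 mucins, whose highest value in any library was 0.43 FPKM. A gene was called when its adjusted p was below 0.05 and its fold change beyond 2-fold. By this rule, which called 182 of all tested genes higher and 108 lower (114 higher and 120 lower after median-of-ratios scaling), 5 chitin genes rose (*obst-H*, *obst-J*, *Muc11A*, *Muc26B* and *Chs2*), which is 11.6% of those tested against 1.82% of all tested genes, and 3 fell (*Cda9*, *Cht9* and *Cht4*), which is 6.98% against 1.08%. An adjusted p below 0.05 at any fold was reached by 12 of the 43, or 27.9%, against 6.71% of all genes. The 2 groups of libraries did not overlap for 15 of the 43, or 34.9%, against 33.5% of all genes, so by this looser measure the chitin genes were like the rest of the table. Their median fold change was 0.04 on the log2 scale.

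**Figure D1:**
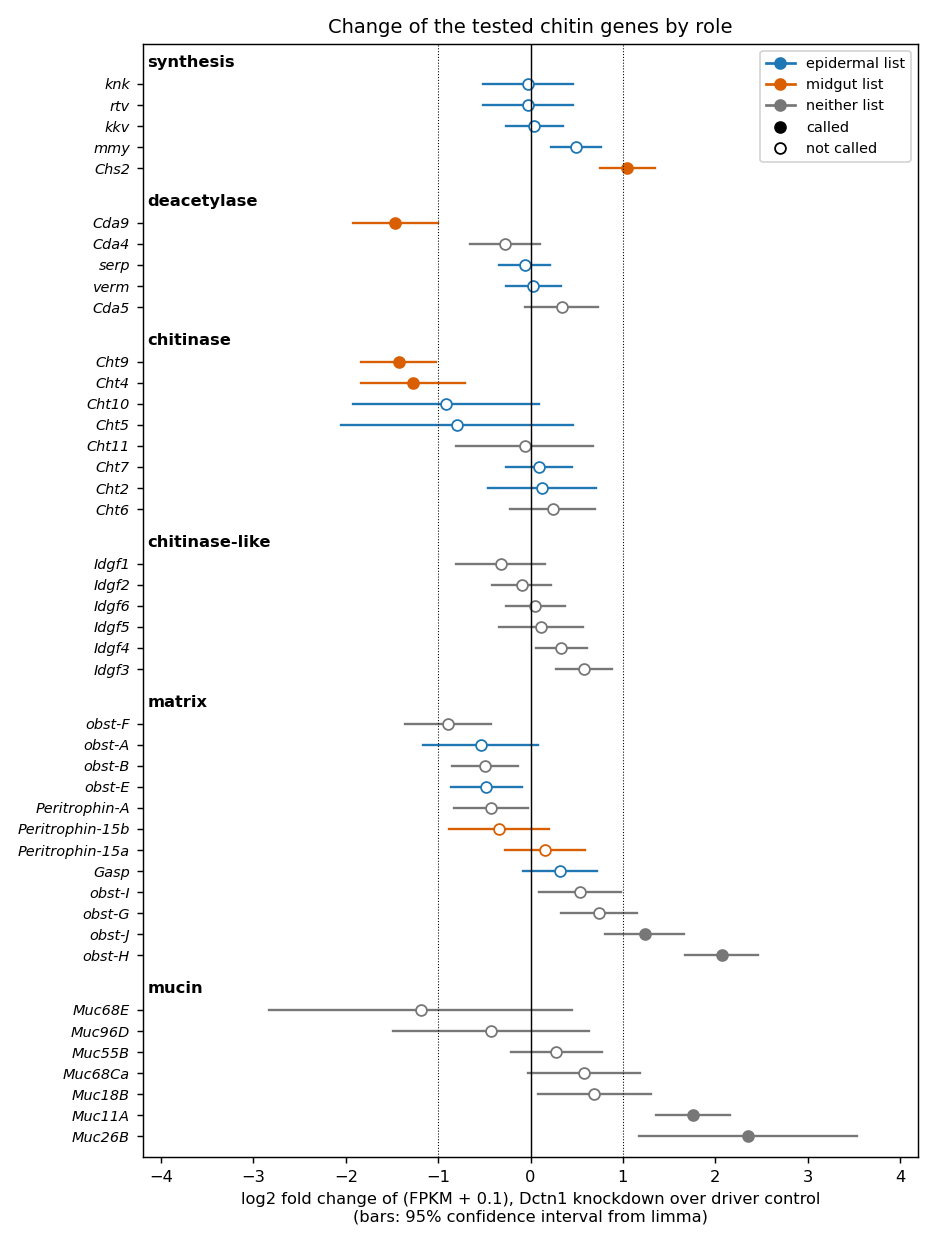
Log2 fold change, knockdown over control, of each of the 43 tested chitin genes with its 95% confidence interval from limma, grouped by role; filled points were called and colours mark the epidermal and midgut lists. The called genes lie at both ends, between -1.46 for Cda9 and 2.35 for Muc26B, and no filled point belongs to the epidermal list.

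Among the synthesis genes, the midgut synthase rose and the epidermal synthase did not pass the test. *Chs2*, the midgut synthase, had 8.98, 9.40 and 8.07 FPKM in the knockdown libraries, against 4.28, 3.92 and 4.42 FPKM in the control libraries. Every knockdown library thus stood above every control library, and the group means were 8.82 ± 0.680 and 4.21 ± 0.258 FPKM (SD, n = 3 each). The log2 fold change was 1.05 (SE 0.13, adjusted p = 0.00445); after median-of-ratios scaling it was 0.87 (adjusted p = 0.0206), past the test but under the 2-fold limit. *kkv*, the synthase of epidermis and tracheae, had 23.5, 21.3 and 22.0 FPKM in the knockdown libraries, against 25.2, 19.1 and 21.0 FPKM in the control libraries. Its groups overlapped fully, and its fold change was 0.04 (95% confidence interval -0.27 to 0.35, adjusted p = 0.870), an interval that lies well within 2-fold.

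The 2 synthases can also be set against each other within a library. The kkv to Chs2 ratio was 2.62, 2.26 and 2.73 in the knockdown libraries, against 5.89, 4.86 and 4.74 in the control libraries. The ratio was lower in every knockdown library than in any control library, with means of 2.54 ± 0.244 and 5.16 ± 0.627 (SD, n = 3 each, exact permutation p = 0.1). As a ratio within a library it does not depend on scaling by a factor per library. *Chs2* did not overlap between the groups and *kkv* varied little, from 19.1 to 25.2 FPKM. The separation of the ratio thus repeats the *Chs2* result and is no further test. *kkv* remained the higher of the pair in all 6 libraries.

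*mmy*, which supplies both synthases, had 58.7, 59.3 and 50.5 FPKM in the knockdown libraries, against 41.0, 38.6 and 39.5 FPKM in the control libraries. The groups did not overlap, and its fold change of 0.50 (SE 0.12, adjusted p = 0.0472) passed the test as deposited, but not after median-of-ratios scaling (0.32, adjusted p = 0.199) and not in any of the 6 fits that left out 1 library (adjusted p 0.0619 to 0.196). *knk* and *rtv*, which encode proteins needed to lay down ordered chitin at the cell surface, both had a fold change of -0.03 (95% confidence intervals -0.52 to 0.46 and -0.51 to 0.46). In both, control library 3 was highest, at 14.9 FPKM for *knk* and 13.9 FPKM for *rtv*.

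Of 9 further genes of the pathway, taken from a list of hexosamine synthesis, chain extrusion and hexosaminidase genes, none was called. With 1.82% of all tested genes called higher and 1.08% lower, no call among 9 genes is close to the background. By adjusted p alone 1 of the 9 passed, or 11.1%, against 6.71% of all tested genes. *Hexo1*, a hexosaminidase of the kind that trims chitin fragments to single sugars, alone passed the adjusted p: it had 45.1, 36.0 and 38.5 FPKM in the knockdown libraries, against 71.4, 66.9 and 61.9 FPKM in the control libraries, and its fold change was -0.75 (SE 0.13, adjusted p = 0.0178). On the supply side, *Gfat2*, one of the enzymes that open the hexosamine pathway, had a fold change of 0.55 (adjusted p = 0.0588), and *nst*, a phosphoacetylglucosamine mutase, one of 0.52 (adjusted p = 0.101). *Gfat1*, *CG1969*, *reb*, *exp*, *Hexo2* and *fdl* lay between -0.34 and 0.25 on the log2 scale.

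**Figure D2:**
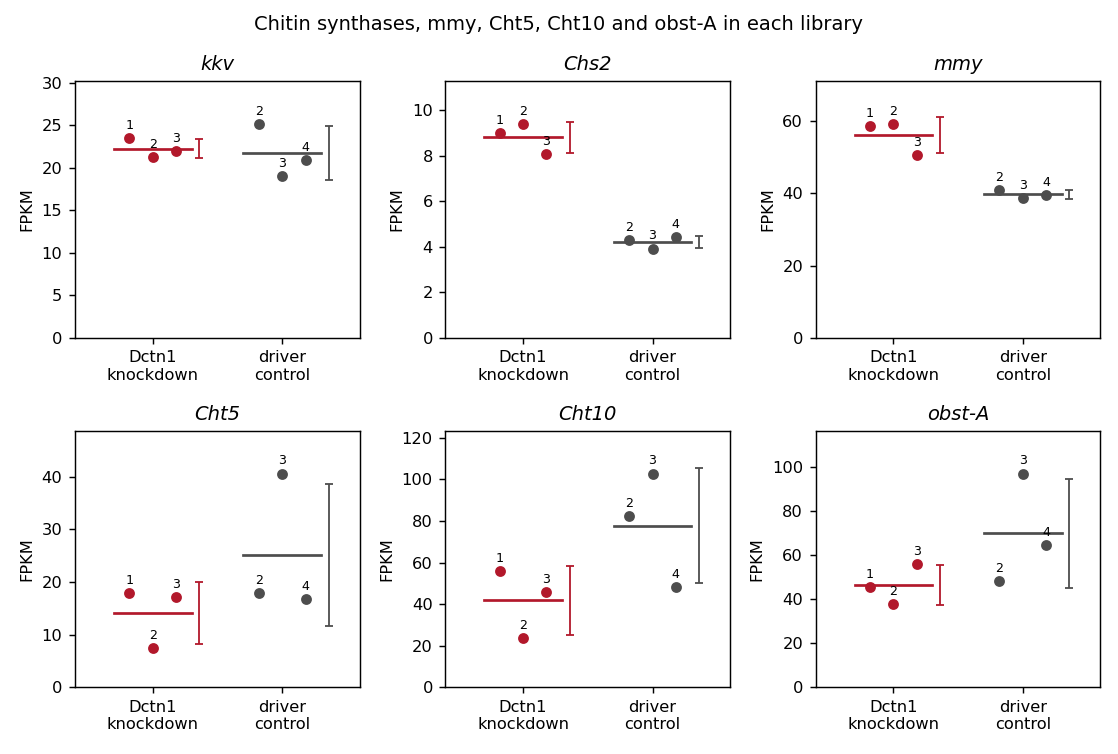
FPKM of kkv, Chs2, mmy, Cht5, Cht10 and obst-A in each of the 6 libraries (points, numbered by replicate), with the group mean (line) and SD (bar), knockdown left of control. Chs2 and mmy are higher in all 3 knockdown libraries, kkv overlaps, and Cht5, Cht10 and obst-A have their highest value in control library 3 and their lowest in knockdown library 2.

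Among the deacetylases, which remove acetyl groups from chitin, the midgut enzyme *Cda9* fell while the epidermal pair did not pass the test. *Cda9* had 19.2, 18.0 and 15.1 FPKM in the knockdown libraries, against 63.8, 37.5 and 46.1 FPKM in the control libraries. The groups were well apart, and its fold change of -1.46 (SE 0.20, adjusted p = 0.00704) kept an adjusted p of at most 0.0370 in every fit that left out a library. *serp* and *verm*, which shape the tracheal and cuticular matrix and lie 5716 bases apart on chromosome arm 3L, were both abundant. *serp* averaged 114 ± 9.90 FPKM in the knockdown and 119 ± 5.20 FPKM in the control (SD, n = 3 each), with a fold change of -0.07 (95% confidence interval -0.35 to 0.22). *verm*, the most abundant deacetylase, averaged 196 ± 14.2 and 192 ± 15.7 FPKM in the knockdown and the control, with a fold change of 0.03 (-0.26 to 0.33). The 2 remaining deacetylases did not pass the test either: *Cda4* had a fold change of -0.28 (adjusted p = 0.331) and *Cda5* one of 0.34 (adjusted p = 0.264).

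Both chitinases of the midgut that could be tested fell. *Cht9* had 59.2, 55.9 and 66.5 FPKM in the knockdown libraries, against 190, 126 and 179 FPKM in the control libraries, and fell with a fold change of -1.43 (SE 0.18, adjusted p = 0.00455). *Cht4*, its neighbour 904 bases away on arm 2R, had 26.0, 23.2 and 24.2 FPKM in the knockdown libraries, against 82.3, 40.1 and 63.3 FPKM in the control libraries. In both genes the knockdown libraries lay close together and control library 3 was the lowest of the controls. The *Cht4* fold change was -1.28 (SE 0.24, adjusted p = 0.0255), but its call was lost when any 1 library other than control library 3 was left out, with adjusted p up to 0.0952. *Cht8* and *Cht12*, next to *Cht4* in the same cluster, were near the floor: *Cht8* had 0.15, 0.18 and 0.13 FPKM in the knockdown libraries, against 0.06, 0.11 and 0.08 FPKM in the control libraries, and neither was tested.

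*Cht5* and *Cht10*, the chitinases best known for digesting cuticle at the moult, varied widely within each group. *Cht10* had 56.0, 23.7 and 45.6 FPKM in the knockdown libraries, against 82.2, 103 and 48.4 FPKM in the control libraries, with a fold change of -0.91 (95% confidence interval -1.92 to 0.09, adjusted p = 0.233). *Cht5* had 18.0, 7.42 and 17.2 FPKM in the knockdown libraries, against 17.9, 40.6 and 16.8 FPKM in the control libraries, with a fold change of -0.80 (-2.06 to 0.46, adjusted p = 0.377). For both, knockdown library 2 was the lowest of all 6 and control library 3 the highest, and the remaining 4 libraries overlapped: *Cht5* lay between 16.8 and 18.0 FPKM in all 4. *Fbp1*, a fat body gene switched on late in larval life, had 1415, 47.3 and 639 FPKM in the knockdown libraries, against 2233, 4094 and 1199 FPKM in the control libraries. The 6 salivary glue genes on the marker list, also expressed late, together summed to 8932, 2771 and 9228 FPKM in the knockdown libraries, against 23739, 25402 and 8424 FPKM in the control libraries, with none of the 6 past the test. *Fbp1* and this sum were lowest in knockdown library 2 and highest in control library 3, but single glue genes did not all follow: knockdown library 2 was the lowest for 5 of the 6 and control library 3 the highest for 3. The fat body list of 6 genes did not share the pattern of *Fbp1*. Knockdown library 2 was the lowest for *Fbp1* alone and the highest for 2 genes. Control library 3 was the highest for *Fbp1* alone and the lowest for *Lsp1alpha*. The part of the differences between these libraries in the *Cht5* and *Cht10* values was not tested.

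*Cht2* and *Cht7*, both placed with the epidermal genes, had fold changes of 0.13 (-0.46 to 0.71) and 0.09 (-0.27 to 0.45), and the other 2 tested chitinases, *Cht6* and *Cht11*, had adjusted p-values of 0.476 and 0.919. Summed over the 8 tested chitinases, the level was 245, 176 and 242 FPKM in the knockdown libraries, against 445, 389 and 376 FPKM in the control libraries. *Cht9* was the largest single term in every control library. That sum did not overlap between the groups, but it includes *Cht9* and *Cht4*, and its separation largely repeats their calls. Taken singly, only these 2 of the 8 tested chitinases did not overlap.

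The Idgf proteins have the fold of a chitinase but lack its catalytic activity, and act as secreted growth factors and in cuticle formation and wound repair. None of the 6 was called, which is close to the background, with 1.82% of all tested genes called higher and 1.08% lower. *Idgf3* had 118, 128 and 103 FPKM in the knockdown libraries, against 82.1, 78.5 and 72.5 FPKM in the control libraries. It rose by less than 2-fold (0.58, SE 0.13, adjusted p = 0.0392), and lost the test after median-of-ratios scaling (0.40, adjusted p = 0.139) and in all 6 fits that left out 1 library (adjusted p 0.0545 to 0.167). *Idgf4*, the most abundant, had 385, 369 and 337 FPKM in the knockdown libraries, against 294, 298 and 273 FPKM in the control libraries. Its groups did not overlap, but its fold change of 0.33 did not pass the test (adjusted p = 0.137). The other 4 lay between -0.32 and 0.11. *Idgf1* and *Idgf2* sit in a row with *Idgf3* on arm 2L, with gaps of 536 and 398 bases, and did not pass the test.

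Among the secreted chitin-binding proteins, *obst-H* and *obst-J* rose, and *obst-H* had the smallest adjusted p of the 43. *obst-H* had 42.9, 46.0 and 54.1 FPKM in the knockdown libraries, against 14.1, 9.53 and 10.5 FPKM in the control libraries. Every knockdown library was far above every control library, and its fold change was 2.07 (SE 0.17, adjusted p = 0.00178). *obst-J* had 134, 134 and 133 FPKM in the knockdown libraries, against 72.2, 58.6 and 43.2 FPKM in the control libraries, and its fold change was 1.24 (SE 0.19, adjusted p = 0.00981). The knockdown libraries were almost equal, with an SD of 0.590 FPKM, while the controls spread by 14.5 FPKM. Both genes lie on arm 3L, *obst-H* at 3L:15528265-15529243 and *obst-J* at 3L:20130451-20131743, on the minus strand in the BDGP6.54 annotation.

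These genes belong to the subgroup *obst-F* to *obst-J* of the obstructor family, whose members passed the adjusted p in both directions. *obst-I*, with a fold change of 0.54 (adjusted p = 0.133), did not pass it. *obst-G* had 28.4, 23.4 and 22.5 FPKM in the knockdown libraries, against 18.9, 12.4 and 13.6 FPKM in the control libraries, with a fold change of 0.74 (SE 0.18, adjusted p = 0.0490) that missed the test after median-of-ratios scaling (0.56, adjusted p = 0.137) and when any 1 library other than control library 2 was left out (adjusted p up to 0.153). *obst-F* had 24.5, 28.5 and 24.6 FPKM in the knockdown libraries, against 62.3, 35.5 and 50.7 FPKM in the control libraries, with a fold change of -0.90 (SE 0.20, adjusted p = 0.0392). That value was short of 2-fold as deposited, was -1.08 after median-of-ratios scaling with the test then missed (adjusted p = 0.0611), and missed the test when any 1 library other than control library 3 was left out (adjusted p up to 0.119). Without control library 3 it was called, at -1.12 (adjusted p = 0.00475). The exons of *obst-F* overlap those of *CG42833* on the other strand, and the strand setting of the counting is not given in the sources used here. *CG42833* had 49.1, 52.5 and 43.0 FPKM in the knockdown libraries, against 39.7, 53.1 and 52.3 FPKM in the control libraries, which overlap. Within a library, the obst-H to obst-F ratio was 1.75, 1.62 and 2.20 in the knockdown, against 0.227, 0.269 and 0.207 in the control. *obst-H* was thus the higher of the pair in every knockdown library and the lower in every control library. Since 1 gene was wholly higher and the other wholly lower in the knockdown, this ratio had to separate the groups and is no further test.

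The other obstructor subgroup, to which *Gasp* and *obst-A* belong, includes well-studied cuticle and tracheal matrix proteins. *Gasp*, which binds chitin in the tracheal lumen, averaged 298 ± 36.8 FPKM in the knockdown and 240 ± 47.3 FPKM in the control (SD, n = 3 each), a fold change of 0.32 (adjusted p = 0.287). *obst-A*, which protects and orders newly made chitin, had 45.8, 38.0 and 56.1 FPKM in the knockdown libraries, against 48.2, 97.2 and 64.5 FPKM in the control libraries (-0.54, adjusted p = 0.251). Its extremes were again knockdown library 2 and control library 3. *obst-E*, a larval cuticle protein whose loss alters body shape, had 54.1, 66.8 and 68.1 FPKM in the knockdown libraries, against 101, 71.3 and 92.4 FPKM in the control libraries. Its groups did not overlap, though by a small margin, and the fold change of -0.48 did not pass the test (adjusted p = 0.128). *obst-B* and *Peritrophin-A* did not pass it either as deposited, with fold changes of -0.49 (adjusted p = 0.101) and -0.43 (adjusted p = 0.174). For *obst-B* the groups did not overlap, and it passed after median-of-ratios scaling (-0.67, adjusted p = 0.0441).

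*Peritrophin-15a*, the most abundant of all 51 genes, had 4324, 5365 and 3682 FPKM in the knockdown libraries, against 4371, 3301 and 4304 FPKM in the control libraries. Its fold change was 0.15 (95% confidence interval -0.28 to 0.59, adjusted p = 0.636). *Peritrophin-15b*, 724 bases away on arm 2L, had 717, 881 and 497 FPKM in the knockdown libraries, against 1074, 776 and 763 FPKM in the control libraries, with a fold change of -0.34 (-0.88 to 0.20, adjusted p = 0.399). Both are small peritrophic matrix proteins, and for both the groups overlapped.

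Mucins are long secreted or membrane proteins rich in serine and threonine, and many insect mucins also carry chitin-binding domains. *Muc11A*, at X:12059795-12065144, had 200, 256 and 202 FPKM in the knockdown libraries, against 79.0, 61.2 and 55.2 FPKM in the control libraries. Its fold change was 1.76 (SE 0.17, adjusted p = 0.00254), and it was called in every fit that left out a library. *Muc26B*, at 2L:6151969-6153701, had 546, 375 and 760 FPKM in the knockdown libraries, against 196, 95.1 and 62.6 FPKM in the control libraries. Although its fold change was the largest of the 43, 2.35, the libraries of each group were also far apart (SE 0.48, adjusted p = 0.0476), and its call was lost when any 1 library other than control library 2 was left out, with adjusted p up to 0.173. *Muc55B*, the most abundant mucin, averaged 729 ± 141 FPKM in the knockdown and 604 ± 132 FPKM in the control (SD, n = 3 each, fold change 0.28, adjusted p = 0.449). The 4 remaining tested mucins did not pass the test, with fold changes between -1.19 and 0.69.

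**Figure D3:**
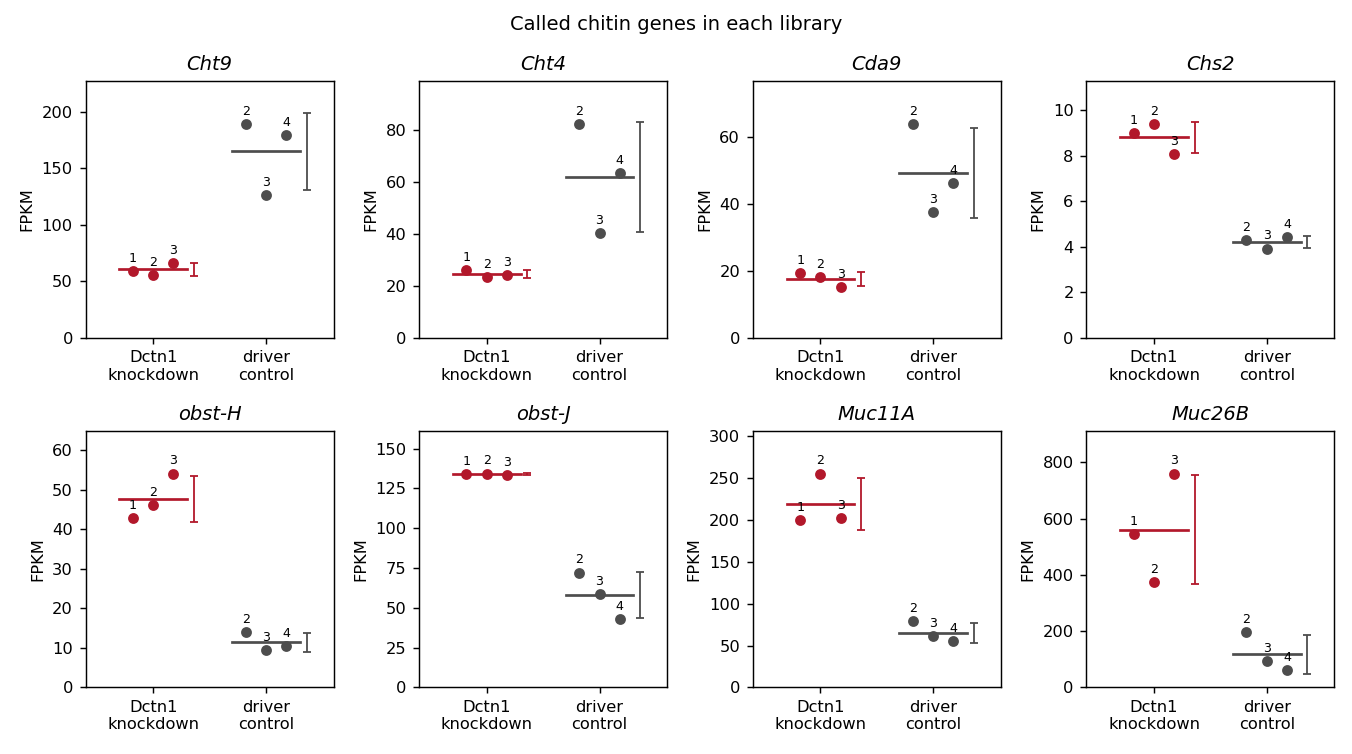
FPKM of the 8 called chitin genes in each of the 6 libraries (points, numbered by replicate), with the group mean (line) and SD (bar), knockdown left of control. The 3 knockdown libraries lie wholly below the controls in Cht9, Cht4 and Cda9, and wholly above them in Chs2, obst-H, obst-J, Muc11A and Muc26B.

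To set the 2 tissues side by side, 13 chitin genes known from epidermis and tracheae (*mmy*, *kkv*, *knk*, *rtv*, *serp*, *verm*, *Gasp*, *obst-A*, *obst-E*, *Cht2*, *Cht5*, *Cht7* and *Cht10*) and 7 known from the midgut (*Chs2*, *Cht4*, *Cht8*, *Cht9*, *Cda9*, *Peritrophin-15a* and *Peritrophin-15b*) were listed. None of the 13 epidermal genes was called, only *mmy* passed the adjusted p, and the groups did not overlap for 2 of them (*mmy* and *obst-E*), or 15.4%. Although listed as epidermal here, *mmy* also supplies the midgut synthase, so it does not separate the 2 tissues. Over all tested genes 1.82% were called higher, 1.08% were called lower, 6.71% passed the adjusted p and 33.5% did not overlap, so with 13 genes a count of 0 called is close to the background. Of the 6 midgut genes tested, 1 rose (*Chs2*), 3 fell (*Cht4*, *Cht9* and *Cda9*) and the 2 peritrophins did not pass the test; the groups did not overlap for 4 of the 6. Whether the lists differ was not tested. The median fold change was -0.81 for the midgut list and -0.03 for the epidermal list, against 0.16 for all genes, and after median-of-ratios scaling -0.99 for the midgut list and -0.20 for the epidermal list. The midgut median stands between 3 genes that fell and 3 that did not, and is -0.34 when *Cht8*, at its trace level, is counted in.

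Per library, as log2 differences from the control mean, the median of the midgut list was -0.73, -0.66 and -1.04 in the knockdown libraries, against 0.27, -0.31 and 0.08 in the control libraries. The epidermal median was 0.10, -0.19 and 0.04 in the knockdown libraries, against 0.04, -0.04 and -0.04 in the control libraries. The midgut medians did not overlap between the groups, and the epidermal medians did. As 3 of the 6 tested midgut genes were called lower, the midgut separation largely repeats those calls. Both lists were drawn up with earlier results of these data known. Control library 3 was the highest of all 6 libraries for 5 of the 13 epidermal genes and the lowest for 5 others.

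Markers of midgut cells were measured in the same libraries. All 8 of them (*mesh*, *Ssk*, *Tsp2A*, *Myo31DF*, *nub*, *GATAe*, *mex1* and *Mur29B*), which encode junction proteins, transcription factors and brush-border or mucin-like proteins, had a fold change above 0, with a median of 0.51 (0.33 after median-of-ratios scaling, when *nub* alone was below 0, at -0.02). As deposited, 7404 of the 9978 tested genes also had a fold change above 0. None of the 8 markers was called or passed the adjusted p. The groups did not overlap for 7 of the 8, or 87.5%, against 33.5% of all tested genes. With 1.82% of all genes called higher and 1.08% lower, no call among 8 genes is close to the background. Their summed level was 1120, 1470 and 1097 FPKM in the knockdown libraries, against 824, 805 and 860 FPKM in the control libraries, and none was absent. Knockdown library 2 was the highest library for all 8 markers, against 19.8% of all tested genes. Control library 3 was the lowest for 6 of the 8, against 18.3% of all tested genes. Several other cell type lists also had median fold changes above 0 as deposited: 0.44 for fat body, 0.40 for neuron, 0.39 for hemocyte and 0.25 for muscle genes. After median-of-ratios scaling these were 0.26, 0.22, 0.21 and 0.07. The fat body list held 3 genes above 0 and 3 below. The salivary glue list went the other way, with a median of -1.57 and 5 of its 6 genes below 0. Septate junction genes of epidermis and other ectoderm had a median fold change of 0.12 over 6 genes (-0.06 after median-of-ratios scaling), with a summed level of 213 to 224 FPKM in the knockdown libraries and 182 to 209 FPKM in the control libraries. The part of midgut cell content in the values of the midgut list and the mucins was not tested.

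**Figure D4:**
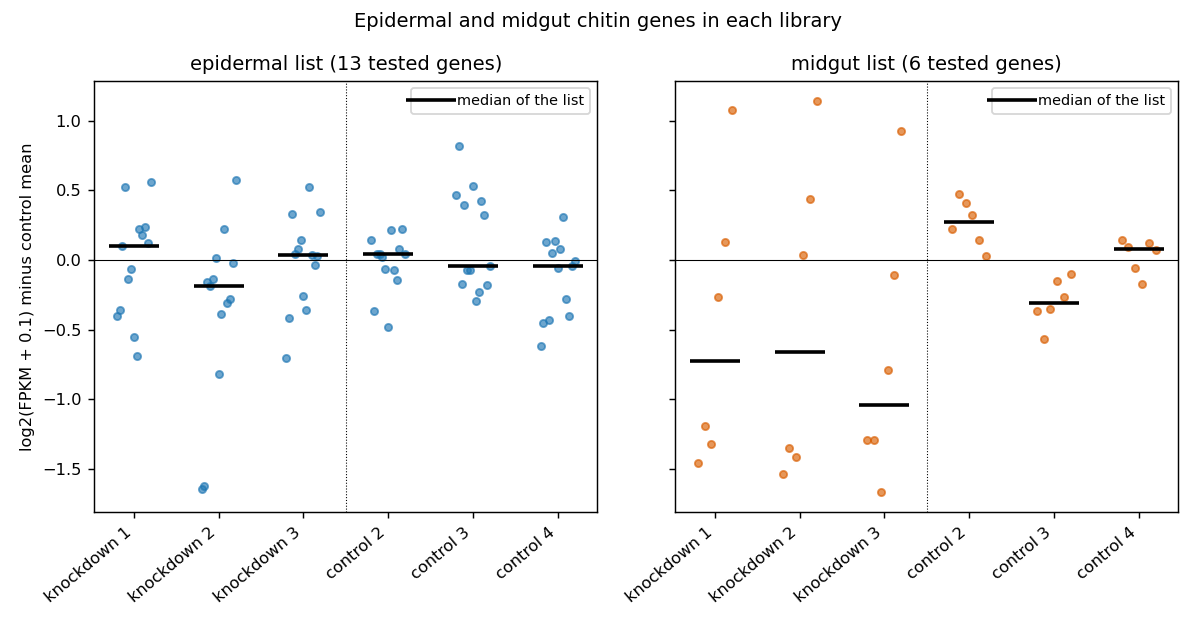
Log2(FPKM + 0.1) minus the control mean for each gene (points) of the epidermal list, left, and the midgut list, right, in each library, with the median of the list (dash). The midgut dash is at -0.73, -0.66 and -1.04 in the 3 knockdown libraries, all below the 3 controls, while 1 midgut gene, Chs2, lies far above 0; the epidermal dashes stay between -0.19 and 0.10.

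Of the 8 called genes, *Chs2* lies at 3L:21962401-21969964 in the BDGP6.54 annotation. By that annotation, 11 of the 51 genes share exon sequence with a gene on the other strand, among them *Cht9*, so reads of the 2 partners cannot be told apart if the counting ignored strand. The 51 genes are spread over the 5 large arms, with 12 on 2L, 8 on 2R, 13 on 3L, 6 on 3R and 12 on X.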

How the data were processed

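Whole female L3b larvae were sequenced by the authors, who deposited 1 FPKM table for all 6 libraries. By the study's methods, reads were cleaned with SOAPnuke, aligned with HISAT2 and quantified with RSEM; the submitters' processing notes name HISAT2, StringTie, Cufflinks, GATK and DESeq2. The genome build and strand setting are not given in the sources used here, and the methods and labels differ on whether age ran from egg laying or hatching and on the sequencer.

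Values were tested with limma 3.58.1 in R 4.3.3 on log2(FPKM + 0.1), for genes with a mean of at least 0.5 FPKM, with condition as the term, a trended robust variance prior and Benjamini-Hochberg adjustment; calls needed an adjusted p below 0.05 and more than 2-fold. The fit was tested on simulated data. FPKM totals varied little (94.2% to 107% of their mean). Low values gave no usable relative depth: modes of the ratios, over 15 to 51 genes per pair, were searched only from 0.5 to 2 and reached both limits. Gene IDs were matched to RefSeq for 13751 of 13858 genes, and positions come from the BDGP6.54 annotation; no sequence was used.

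The genes and lists were chosen with earlier results of these data known. Named by rule were all genes with an adjusted p below 0.05, all genes of synthesis, deacetylation and the tissue lists, and the most abundant of each role. Some other genes are named beside them. Alternatives were other pseudocounts, filters, scalings, variance priors, sample weights, a replicate block and each library left out.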

Additional observations from a re-analysis of the deposited data

How the results depend on the processing

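Depth is unknown, so the precision of low values cannot be given, and with 3 libraries a group no exact test can pass 0.05. Of the 8 calls, *obst-H*, *Muc11A* and *Cda9* were made under every alternative tried. *Chs2* was not called after median-of-ratios or quantile normalisation or with a pseudocount of 1, and *Cht4* not after quantile normalisation. No called fold change changed sign under any alternative. Median-of-ratios scaling gave 114 genes higher of all tested, a member median of -0.14 and an epidermal median of -0.20, and quantile normalisation gave 117 genes higher and 7 chitin genes with an adjusted p below 0.05. With no filter the midgut median was -0.34 and its difference from the epidermal median -0.31, since *Cht8* then entered. Estimated sample weights left 3 chitin genes higher, with *Muc26B* and *obst-J* no longer called, 179 genes lower and a midgut median of -1.07. By adjusted p alone, 8 chitin genes were higher, and 505 of all genes were higher and 165 lower. Leaving out single libraries gave 4 to 5 chitin genes higher, 2 to 4 lower and 6 to 8 with an adjusted p below 0.05, 140 to 183 genes higher and 69 to 109 lower in all, and a difference between the midgut and epidermal medians as small as -0.61. Without knockdown library 2 and control library 3 together, chosen after seeing the data, 3 chitin genes were higher (*Chs2* and *Muc26B* were lost), 4 were lower (*obst-F* was gained), 9 had an adjusted p below 0.05, 189 genes were higher and 145 lower, and the difference between the midgut and epidermal medians was -1.08. The groups share only the numbers 2 and 3, and same-numbered libraries deviated together weakly (r = 0.40 and 0.14), so the numbers name libraries. A replicate block, in which only those 4 libraries inform the contrast, gave 200 genes lower and an epidermal median of -0.27, with 5 chitin genes higher and 4 lower; *Cht4*, *Cht9* and *Muc26B* were not called and *Cht5*, *Cht10*, *Muc18B* and *Muc68E* were. The causes of these shifts were not tested.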

Other observations

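Outside the 51 genes, 63 tested genes carried the chitin-binding term in the molecular function column of the deposited table and were not cuticle proteins by symbol; this set was chosen after the data were seen. Of these, 5 rose (*CG32302*, *CG7017*, *CG13075*, *CG13806* and *CG33985*), 2 fell (*CG14300* and *CG34282*) and 12 had an adjusted p below 0.05, against 1.82% called higher, 1.08% called lower and 6.71% by adjusted p over all tested genes; as shares of the 63 these are 7.94%, 3.17% and 19.0%. Their median fold change was 0.16 on the log2 scale (-0.02 after median-of-ratios scaling). *CG33985* had 14.8, 14.4 and 14.0 FPKM in the knockdown libraries, against 4.14, 4.70 and 2.92 FPKM in the control libraries, with a fold change of 1.88 (SE 0.18, limma adjusted p = 0.00254). *CG13806* had 22.8, 24.1 and 23.0 FPKM in the knockdown libraries, against 10.8, 6.13 and 5.81 FPKM in the control libraries (1.66, SE 0.23, limma adjusted p = 0.00732). For both genes the 3 knockdown libraries were close to each other, as for *obst-J*. *CG14300*, the more abundant of the 2 that fell, had 999, 1126 and 834 FPKM in the knockdown libraries, against 3798, 2544 and 2899 FPKM in the control libraries (-1.63, SE 0.19, limma adjusted p = 0.00389). *CG34282* had 723, 915 and 681 FPKM in the knockdown libraries, against 2602, 1528 and 1880 FPKM in the control libraries (-1.35, SE 0.22, limma adjusted p = 0.0129). In both, as in *Cht9*, *Cht4* and *Cda9*, control library 2 was the highest of the controls and control library 3 the lowest.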
